A study of Mus musculus with 3 samples.

Results

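This comparison set retinal explants grown with a low dose of a small molecule agonist of somatostatin receptor 2 (Sstr2) against explants grown without agonist. The explant library held 8 multiplexed samples, and its members here were the 4 recorded at 5 or 50 nM and the 2 recorded at 0 nM, of 18 samples in the whole series. They contributed 4037 of the 5607 explant cells (2481 at the low doses and 1556 at 0 nM), and the series held 14611 cells. The 500 nM samples were left out of the comparison. All groups were wild type CD1 retinas taken at embryonic day 14 and kept for 6 days on Nuclepore membranes, to a stage recorded as postnatal day 0, with the agonist added to the growth medium of the treated explants. A lipid-anchored barcode marked the cells of each sample before all were pooled into a single 10x Chromium 3' library. A sample is called an explant here, although the study does not say how many retinas it held or whether samples came from separate litters, so the p-values measure the spread between these samples only, which may be technical.

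Sstr2 is a receptor for the peptide somatostatin and couples to inhibitory G proteins, which lower cyclic AMP. In the developing retina it marks neurogenic progenitors, the cells about to leave the cell cycle as neurons, whereas primary progenitors keep dividing and hold high Notch activity, read through targets such as *Hes5*. Photoreceptor precursors switch on *Otx2* and then *Crx*, and mature into cones, which express opsins such as *Opn1sw*, and rods.

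The authors deposited a cell type for each cell, and counts of unique molecular identifiers (UMIs) were summed within each explant and cell type. The 6 explants held 318 to 1075 cells and 1281682 to 4237324 UMIs each, with a median of 4068.5 to 4317 UMIs per cell. The labels matched their markers: 11 of 12 primary progenitor markers, 11 of 14 neurogenic progenitor markers, 15 of 16 photoreceptor markers, 10 of 14 amacrine markers and 13 of 15 RGC markers were highest, relative to all UMIs, in the type they name. RGC-labelled cells stood apart. Mitochondrial transcripts took a median of 21.9% of their UMIs against 5.44% to 5.71% in the other types, and of 132 such cells 63 held a UMI of the RGC factor *Pou4f1*, 36 one of the progenitor gene *Sox2* and 4 both. Sex also differed: *Xist*, the transcript of the inactive X, was found in 98.7% of the cells of the first explant at 5 nM and in 57.7% to 62.4% of the cells of each other explant. That explant had a Y-linked UMI in 0 of 318 cells, which allows a share of up to 0.943%, against 25.8% to 29.0% in the others. Each of the others thus held transcripts of both sexes and may not be a single retina. Whether they pooled retinas of both sexes or shared signal between samples was not tested. No cell barcode was shared between explants, which tests nothing because each cell of the single library carries a single sample label. With the P0 and P14 libraries of the series 9 and 4 were shared. Values below are summed UMIs per 1000000 UMIs of that explant and cell type after TMM scaling (CPM), given in the order first and second explant at each dose. Explants of a dose were numbered by their barcode, and log2 fold changes are low doses minus 0 nM. The standard error (SE) given was derived as the size of the log2 fold change divided by the square root of edgeR's F statistic.

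In neurogenic progenitors a replication histone and a Notch target fell and a pair of glycolytic enzymes rose when the 4 explants at 5 and 50 nM were tested as 1 group. Many cell cycle genes lay lower and early photoreceptor genes higher without passing the adjusted threshold. By edgeR's quasi-likelihood test, 7 of 5471 genes (0.128%) passed an adjusted p of 0.05, 4 lower and 3 higher, over 492 cells. *Hist1h1b*, a linker histone made during DNA replication, lay at 1159 and 1286 CPM at 0 nM, at 532 and 1036 CPM at 5 nM and at 795 and 775 CPM at 50 nM. All 4 treated explants were below both untreated ones, as in 7.44% of all genes (7.26% had them all above), and the log2 fold change was -0.57 (SE 0.12, adjusted p = 0.0367). *Hes5* lay at 1999 and 1814 CPM at 0 nM, at 1320 and 988 CPM at 5 nM and at 1428 and 1700 CPM at 50 nM. Its groups did not overlap either, although the second explant at 50 nM came close to the untreated ones, and the log2 fold change was -0.51 (SE 0.11, adjusted p = 0.0367).

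*Hes5* is a target of Notch signaling through the DNA-binding factor Rbpj, so the 250 bases before its start site are shown, from RefSeq (GRCm38.p6, chr4:154960673-154960922, plus strand), with both matches to the Rbpj core GTGGGAA or its reverse complement TTCCCAC in capitals. The gene itself lies at chr4:154960923-154962371.
Hes5: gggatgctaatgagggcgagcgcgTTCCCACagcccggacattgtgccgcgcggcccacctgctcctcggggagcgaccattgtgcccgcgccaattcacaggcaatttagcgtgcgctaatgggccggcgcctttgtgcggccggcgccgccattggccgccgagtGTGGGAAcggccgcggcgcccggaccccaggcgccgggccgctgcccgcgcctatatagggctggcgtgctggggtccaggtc
Such a match was present in 5.41% of 27025 promoter windows of this length, and binding was not measured.

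*Psip1*, which encodes a chromatin-bound coactivator, lay at 2647 and 2529 CPM at 0 nM, at 1805 and 2047 CPM at 5 nM and at 2290 and 2054 CPM at 50 nM, with a log2 fold change of -0.34 (SE 0.07, adjusted p = 0.0435). *E130114P18Rik*, a gene of the files known by its clone name, lay at 155 and 160 CPM at 0 nM, at 40.9 and 93.4 CPM at 5 nM and at 96.2 and 77.3 CPM at 50 nM, with a log2 fold change of -0.94 (SE 0.21, adjusted p = 0.0487). In both genes every treated explant was below every untreated one. *Ldha*, which encodes the lactate dehydrogenase subunit of aerobic glycolysis, rose from 207 and 189 CPM at 0 nM to 438 and 337 CPM at 5 nM and to 420 and 284 CPM at 50 nM (log2 fold change 0.82, SE 0.17, adjusted p = 0.0344). *Aldoa*, the glycolytic aldolase, rose from 96.4 and 106 CPM at 0 nM to 228 and 194 CPM at 5 nM and to 192 and 162 CPM at 50 nM (log2 fold change 0.92, SE 0.20, adjusted p = 0.0367). These were the largest proportional rises among the 7, and their treated explants lay wholly above the untreated ones. The nuclear noncoding RNA *Malat1* rose by 0.22 on the log2 scale (SE 0.04, adjusted p = 0.0344), from 26670 and 25366 CPM at 0 nM to between 27247 and 31904 CPM.

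**Figure D1:**
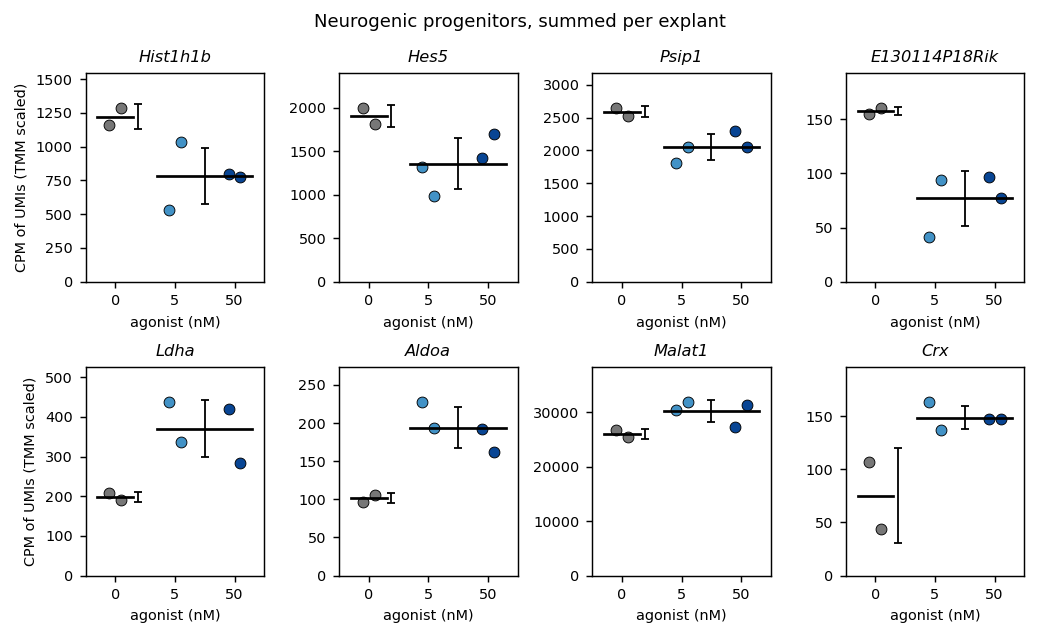
CPM of UMIs (TMM scaled, linear axis from 0) of the 7 genes past the threshold and *Crx* in neurogenic progenitors, against agonist dose in nM; each point is an explant, horizontal lines are the mean of the 2 explants at 0 nM and of the 4 at low doses, and bars are 1 SD. In all 8 panels the 4 treated explants lie on 1 side of both untreated ones; *Crx* did not pass the adjusted threshold (adjusted p = 0.319).

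None of the S phase or G2 and mitosis genes passed the adjusted threshold in these cells. Of 29 S phase genes tested, 12 were lower at an unadjusted p under 0.05 and 0 higher, against 3.44% of all genes lower and 3.09% higher, and their median log2 fold change was -0.45 against 0.00365 over all genes. Among them were *Mcm6*, a subunit of the replicative helicase (-0.73, SE 0.20, unadjusted p = 0.000785), *Lig1*, the replicative DNA ligase (-0.78, SE 0.21, unadjusted p = 0.00048), *Tipin*, of the fork protection complex, and *Rrm2*, of ribonucleotide reductase. The 4 most abundant members were *Dut* (-0.28, adjusted p = 0.736), *Tipin* (-0.58, adjusted p = 0.397), *Slbp* (-0.25, adjusted p = 0.904) and *Mcm7* (-0.10, adjusted p = 0.957).

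Of 33 G2 and mitosis genes, 12 were lower at an unadjusted p under 0.05 and 0 higher, with a median log2 fold change of -0.36. *Cenpa*, the centromeric histone, lay at 218 and 284 CPM at 0 nM, at 87.6 and 160 CPM at 5 nM and at 192 and 125 CPM at 50 nM, without overlap (log2 fold change -0.76, SE 0.19, adjusted p = 0.101). *Top2a* (-0.36), *Hmgb2* (-0.29) and *Cks2* (-0.30), among the most abundant members, had unadjusted p of 0.0284, 0.00718 and 0.0435, and *Cenpf* (-0.07) one of 0.718. *Ccnd1*, the D cyclin of retinal progenitors, lay at 742 and 689 CPM at 0 nM and at 410 to 636 CPM at the low doses (log2 fold change -0.36, SE 0.12, adjusted p = 0.471). The level of these lists differed between explants of a dose. Summed G2 and mitosis genes stood at 6090 and 5830 CPM at 0 nM, 3149 and 5047 CPM at 5 nM, then 6372 and 4288 CPM at 50 nM. The first explant at 50 nM was thus above both untreated ones. Summed S phase genes stood at 3250 and 3323 CPM at 0 nM, 1741 and 2521 CPM at 5 nM, then 2908 and 2525 CPM at 50 nM. In both lists the lowest was the explant with almost only *Xist*-positive cells. Without that explant 8 S phase and 9 G2 and mitosis genes were lower and 0 higher. Leaving out each explant in turn gave 7 to 17 and 4 to 14, the smallest numbers without the second explant at 0 nM or at 5 nM and without the first explant at 0 nM, respectively.

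Photoreceptor markers lay higher in neurogenic progenitors. Of 16, 6 were abundant enough to test, 5 of which were higher at an unadjusted p under 0.05 and 0 lower, with a median of 0.56, and none passed the adjusted threshold. *Crx*, a homeobox factor of photoreceptor precursors, lay at 107 and 43.7 CPM at 0 nM and between 137 and 164 CPM at the low doses (log2 fold change 0.81, SE 0.23, adjusted p = 0.319). *Otx2*, which acts upstream of it, lay at 675 and 634 CPM at 0 nM, at 905 and 818 CPM at 5 nM and at 770 and 798 CPM at 50 nM, again without overlap (log2 fold change 0.32, SE 0.11, adjusted p = 0.481). *Neurod1* (0.28), *Gnb3* (0.95) and *Gngt2* (0.91), the last 2 encoding subunits of cone transducin, were the others, and *Prdm1* was at 0.04 (unadjusted p = 0.851). The count of 5 went to 1 without the second explant at 0 nM and to 6 without the first. The median of the list was above 0 in other types too, at 0.33 in primary progenitors and 0.51 in amacrine cells. In primary progenitors 2 of 6 were higher (*Otx2* and *Gngt2*) and 0 lower, against 2.48% and 2.59% of all genes. In amacrine cells 2 of 7 were higher (*Nr2e3* and *Gnb3*) and 0 lower, against 3.02% and 2.75%. None passed the adjusted threshold. Some members were low, such as *Prdm1* at 16.1 CPM in primary progenitors and 9.83 CPM in amacrine cells. *Gngt2* was at 40.8 CPM in neurogenic and 26.5 CPM in primary progenitors. The filter kept a gene abundant enough in any 2 explants, so a low gene could enter through treated explants alone. For such low members the direction may follow from the filter in each of these types.

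Neurogenic progenitor markers themselves were mixed: 2 of 14 were higher and 1 lower at an unadjusted p under 0.05, with a median of -0.10. *Atoh7*, required for RGC fate, was at 1951 and 1902 CPM at 5 nM against 1322 and 1224 CPM at 0 nM, but at 1322 and 1217 CPM at 50 nM (log2 fold change 0.32, SE 0.11, adjusted p = 0.559). It rose at 5 nM alone (0.59, adjusted p = 0.00106) and not at 50 nM alone (-0.02, adjusted p = 0.996). Its level at 50 nM was below that at 5 nM (-0.61, adjusted p = 0.00197). *Neurod4* had a log2 fold change of 0.38 (adjusted p = 0.412), *Hes6* of -0.17 (adjusted p = 0.717) and *Neurog2* of -0.06 (adjusted p = 0.969). *Sstr2* itself lay at 136 and 149 CPM at 0 nM, at 99.3 and 117 CPM at 5 nM and at 182 and 64.8 CPM at 50 nM, so that the 50 nM explants enclosed all others (log2 fold change -0.37, SE 0.23, adjusted p = 0.841). Among glycolysis and hypoxia genes, 4 of 20 were higher and 0 lower at an unadjusted p under 0.05, with a median of 0.14. Beside *Ldha* and *Aldoa* these were *Bnip3* and *Ndrg1*, while *Gapdh* (-0.02) and *Pkm* (0.01) had unadjusted p of 0.872 and 0.946. In primary progenitors this list went the other way, with 0 of 27 higher and 4 lower, against 2.48% and 2.59% of all genes, and a median of -0.165. In photoreceptors, *Ldha* lay at 1941 to 2301 CPM, well above its level in neurogenic progenitors, and the summed photoreceptor markers in neurogenic progenitors were 1754 and 1487 CPM at 0 nM and 2046 to 2290 CPM at the low doses. The part of these in the rise of *Ldha* was not tested. The number of calls depended on the explants used: edgeR called 0 genes without either explant at 0 nM and without the first explant at 5 nM, 2 without the second explant at 5 nM, 3 without the second at 50 nM and 13 without the first at 50 nM, and DESeq2 called 0 (77 at an unadjusted p under 0.05).

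**Figure D2:**
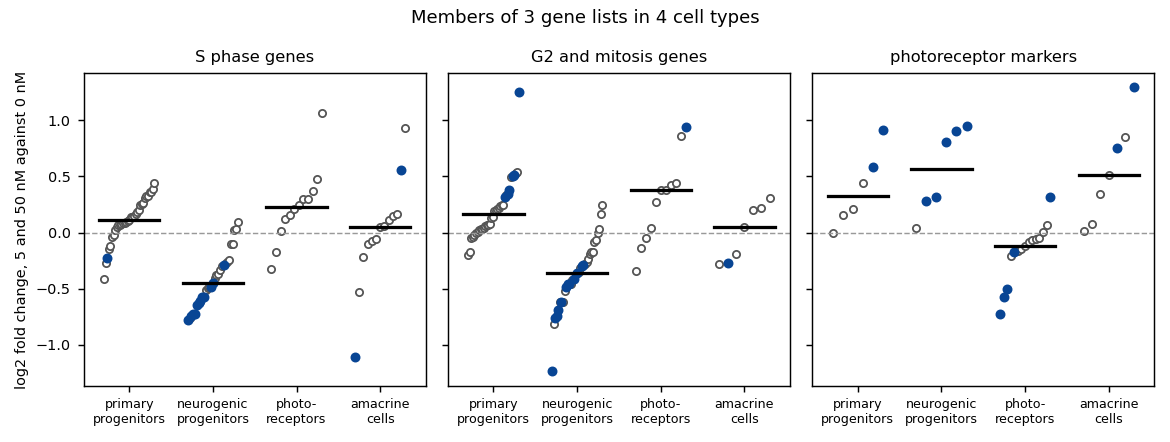
Log2 fold change (5 and 50 nM against 0 nM) of each tested member of 3 gene lists in 4 cell types; filled points had an unadjusted p under 0.05 by edgeR and bars are list medians. S phase genes and G2 and mitosis genes have medians of -0.45 and -0.36 in neurogenic progenitors and of 0.11 and 0.17 in primary progenitors, and the median of the photoreceptor markers is 0.33 in primary progenitors, 0.56 in neurogenic progenitors, 0.51 in amacrine cells and -0.12 in photoreceptors.

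In photoreceptors the cone opsin *Opn1sw* fell at the low doses, and several other genes of photoreceptor function lay lower without passing the threshold. Over 1280 cells, 2 of 7263 genes (0.0275%) passed. *Opn1sw*, the short-wavelength opsin of mouse cones, lay at 505 and 674 CPM at 0 nM, at 303 and 270 CPM at 5 nM and at 431 and 396 CPM at 50 nM. All treated explants were below the untreated ones, as in 6.33% of all genes (6.80% had them all above), those at 5 nM below those at 50 nM, and the log2 fold change was -0.72 (SE 0.11, adjusted p = 9.33e-05). The share of photoreceptors with an *Opn1sw* UMI was 24.3% and 26.1% at 0 nM, 22.6% and 22.3% at 5 nM and 29.4% and 22.3% at 50 nM, so the share overlapped while the summed level did not. In cells thinned to 2000 UMIs the shares were 22.9% and 22.7% at 0 nM and 17.8% to 24.3% at the low doses. Amacrine cells, which lack this opsin, had it in 0.980% to 3.03% of cells, with median depths of 4682 to 4874.5 UMIs against 2478 to 2742.5 in photoreceptors. The largest count in a cell was 34 and 35 UMIs in the untreated explants and 13 to 21 in the treated ones.

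*Aipl1*, a chaperone that photoreceptors need for their phosphodiesterase, lay just outside the threshold. It stood at 240 and 216 CPM at 0 nM, at 197 and 129 CPM at 5 nM and at 170 and 153 CPM at 50 nM, without overlap (log2 fold change -0.57, SE 0.13, adjusted p = 0.0521). The 250 bases before both start sites are shown from RefSeq (GRCm38.p6), for *Opn1sw* chr6:29380514-29380763 and for *Aipl1* chr11:72037510-72037759, both on the minus strand and written in the direction of the gene. Capitals mark the core TAATCC, or GGATTA on the other strand, which Crx and Otx2 bind.
Opn1sw: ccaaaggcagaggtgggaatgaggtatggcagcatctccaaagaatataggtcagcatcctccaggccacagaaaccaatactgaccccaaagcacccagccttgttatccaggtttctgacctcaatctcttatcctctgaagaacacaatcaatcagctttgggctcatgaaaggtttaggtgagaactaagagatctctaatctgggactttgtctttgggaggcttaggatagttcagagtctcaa
Aipl1: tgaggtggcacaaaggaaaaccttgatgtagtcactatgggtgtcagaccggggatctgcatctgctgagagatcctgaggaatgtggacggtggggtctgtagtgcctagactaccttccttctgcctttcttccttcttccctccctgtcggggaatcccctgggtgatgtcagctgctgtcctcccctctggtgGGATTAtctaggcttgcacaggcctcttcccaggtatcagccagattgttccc
The *Aipl1* window held 1 match and the *Opn1sw* window 0 to these letters, and 6.38% of 27025 windows held at least 1. GENCODE M21 places *Opn1sw* at chr6:29376671-29388468, so the window shown, taken from the RefSeq start site, lies inside that longer gene. The bases before the GENCODE start are not shown.

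*Sag*, the arrestin of rods, lay at 1232 and 1166 CPM at 0 nM and between 802 and 1059 CPM at the low doses (log2 fold change -0.32, SE 0.09, adjusted p = 0.191). *Rcvrn*, recoverin, overlapped between groups, at 204 and 116 CPM at 0 nM and between 52.0 and 226 CPM at the low doses (log2 fold change -0.50, SE 0.19, adjusted p = 0.568). Of 15 photoreceptor markers tested, 4 were lower (*Opn1sw*, *Aipl1*, *Rcvrn* and *Gnb3*) and 1 higher (*Rbp3*, 0.32) at an unadjusted p under 0.05, against 2.97% and 3.76% of all genes, with a median of -0.12 against 0.00343. The precursor factors were nearer to 0, with log2 fold changes of -0.08 for *Crx* (SE 0.10, unadjusted p = 0.383), -0.14 for *Otx2* (SE 0.08, unadjusted p = 0.0845) and -0.04 for *Neurod1* (SE 0.08, unadjusted p = 0.559). *Gngt2* spread widely, from 730 to 2401 CPM within the low doses. Without the first explant at 0 nM 2 markers were lower and 0 higher, and without the first at 5 nM 7 and 1.

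The other gene past the threshold in photoreceptors rose. *Ppp1r14b*, an inhibitor of protein phosphatase 1, lay at 307 and 344 CPM at 0 nM, at 438 and 533 CPM at 5 nM and at 379 and 450 CPM at 50 nM (log2 fold change 0.51, SE 0.11, adjusted p = 0.0428), with all treated explants higher. *Rpl28*, of the large ribosomal subunit, was next (0.36, adjusted p = 0.0521). By level, the largest rises without overlap were those of mt-Atp6 (0.10), *Tpt1* (0.22) and *Eef1a1* (0.24), and the largest falls those of *Ubb* (-0.32), *Sag* and *Opn1sw*. The call of *Opn1sw* was lost without the second explant at 0 nM (log2 fold change -0.54, adjusted p = 0.238) and by DESeq2 and limma, which called 0 genes in photoreceptors (105 at an unadjusted p under 0.05 by DESeq2), and *Opn1sw* passed at 5 nM alone (-1.02) and at 50 nM alone (-0.48). Leaving out each explant in turn gave 1 to 6 calls, 1 without either explant at 0 nM.

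**Figure D3:**
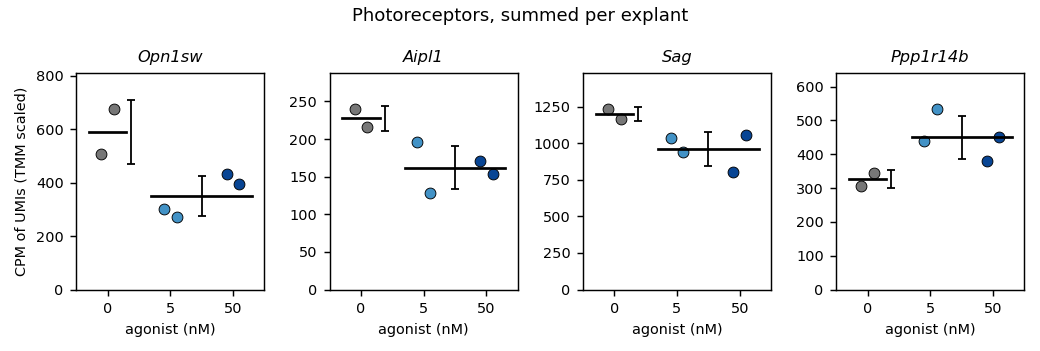
CPM of UMIs (TMM scaled, linear axis from 0) of *Opn1sw*, *Aipl1*, *Sag* and *Ppp1r14b* in photoreceptors against agonist dose in nM; points are explants, lines the means of the 2 untreated and 4 treated explants and bars 1 SD. The treated explants of *Opn1sw* lie between 270 and 431 and the untreated at 505 and 674; those of *Ppp1r14b* lie between 379 and 533, above 307 and 344.

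In amacrine cells the progenitor genes *Atoh7* and *Hes5* and the G protein gene *Gnai2* rose at the low doses. Over 1014 cells, 6 of 7610 genes (0.0788%) passed, 3 higher and 3 lower. *Atoh7* lay at 39.9 and 28.0 CPM at 0 nM, at 105 and 88.9 CPM at 5 nM and at 174 and 81.2 CPM at 50 nM (log2 fold change 1.53, SE 0.22, adjusted p = 0.000143), with every treated explant above both untreated ones, as in 6.43% of all genes (6.27% had them all below). It was found in 6.48% and 7.26% of amacrine cells at 0 nM, in 15.2% and 10.9% at 5 nM and in 11.8% and 10.9% at 50 nM, and after thinning to 3000 UMIs in 5.23% and 2.48%, 10.8% and 9.41%, and 7.07% and 8.99%. In primary progenitors, where *Atoh7* is low, the unthinned shares at like depth were 5.13% and 4.10% at 0 nM and 2.36% to 7.69% at the low doses. The unthinned shares of untreated amacrine cells were thus above those of untreated primary progenitors and within the range of treated ones. The largest count in a cell was 25 of 65 and 6 of 16 *Atoh7* UMIs at 0 nM, 16 of 32 and 30 of 72 at 5 nM, and 43 of 81 and 22 of 72 at 50 nM. With cells marked as doublets left out the log2 fold change was 2.03.

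*Hes5* rose in amacrine cells, opposite to its fall in neurogenic progenitors, from 77.3 and 114 CPM at 0 nM to 183 and 168 CPM at 5 nM and to 148 and 127 CPM at 50 nM (log2 fold change 0.79, SE 0.15, adjusted p = 0.00984). The share of amacrine cells with a *Hes5* UMI overlapped between groups, at 16.3% and 21.0% at 0 nM, 24.2% and 19.5% at 5 nM and 19.6% and 20.7% at 50 nM. The largest count in a cell was 20 of 126 and 23 of 65 *Hes5* UMIs at 0 nM, 18 of 56 and 47 of 136 at 5 nM, and 20 of 69 and 28 of 113 at 50 nM. *Gnai2*, an inhibitory G protein alpha subunit of the kind through which Sstr2 signals, rose from 112 and 112 CPM at 0 nM to 190 and 167 CPM at 5 nM and to 195 and 202 CPM at 50 nM (log2 fold change 0.75, SE 0.13, adjusted p = 0.00167). Its treated explants all lay well above the pair of untreated ones, which differed little from each other. Of 25 somatostatin and Gi signaling genes tested, 3 were higher (*Gnai2*, *Gnai3* and *Rgs16*) and 1 lower (*Gng3*) at an unadjusted p under 0.05, against 3.02% and 2.75% of all genes, with a median of -0.06 against 0.00515. The receptor was rare in these cells, with 37 *Sstr2* UMIs over the 6 explants (log2 fold change 1.23, SE 0.63, unadjusted p = 0.0565).

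Some markers of other cell types also lay higher. In amacrine cells 4 of 11 neurogenic progenitor markers tested were higher and 0 lower at an unadjusted p under 0.05, against 3.02% and 2.75% of all genes. The 4 were *Atoh7*, *Gadd45a*, *Hes6* and *Neurod4*. Of the 11, 6 had a log2 fold change above 0 and 5 below, near the split of all 7610 genes (3883 above and 3727 below). Their summed level was 1046 and 1084 CPM at 0 nM and 1103 to 1538 CPM at the low doses. These sums were apart only through *Atoh7* itself, which gave 28.0 CPM of the 1084 and 88.9 CPM of the 1103. Primary progenitor markers, which include *Hes5* itself, summed to 471 and 488 CPM at 0 nM and 559 to 636 CPM at the low doses. Of 16 photoreceptor markers 7 were tested in amacrine cells, and all 7 had a log2 fold change above 0, as did 3883 of all 7610 genes. Among the 7, *Crx* (0.01, SE 0.42) and *Neurod1* (0.08, SE 0.15) were near 0. Their summed level was 217 and 232 CPM at 0 nM and 215 to 315 CPM at the low doses. The filter kept a gene abundant enough in any 2 explants, so a low gene could enter through treated explants alone. For low members such as *Prdm1* and *Nr2e3* (9.83 and 12.6 CPM over the 6 explants) the direction may follow from the filter. The part of RNA or cells of these other types in the rise of *Atoh7* and *Hes5* was not tested. Amacrine markers had 0 higher and 2 lower of 12, *Tfap2b* (-0.33, adjusted p = 0.339) and *Gad1* (-0.48, adjusted p = 0.731), while *Pax6* (-0.00, unadjusted p = 0.945) and *Meis2* (-0.16, unadjusted p = 0.0893), both abundant, overlapped between groups.

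Of the genes that fell in amacrine cells, *Cbln2*, a secreted synapse organizer, lay at 220 and 301 CPM at 0 nM, at 216 and 131 CPM at 5 nM and at 154 and 131 CPM at 50 nM (log2 fold change -0.75, SE 0.13, adjusted p = 0.00323). *Ubb*, a polyubiquitin gene, lay at 2768 and 3084 CPM at 0 nM, at 2110 and 2703 CPM at 5 nM and at 1885 and 1965 CPM at 50 nM (log2 fold change -0.42, SE 0.08, adjusted p = 0.0125). The groups of both genes were apart, narrowly so through 1 explant at 5 nM each. *Cldn5*, a tight junction gene known from endothelium, lay at 73.0 and 15.7 CPM at 0 nM and between 4.29 and 27.1 CPM at the low doses (log2 fold change -2.04, SE 0.38, adjusted p = 0.00497), with overlap. Its level came mostly from the first explant at 0 nM, and without that explant the log2 fold change was -0.26 (adjusted p = 0.977). *Apoe* had the same pattern (68.1 CPM in that explant, 6.54 to 27.9 CPM in the rest, adjusted p = 0.0608), and so did microglia and macrophage markers, of which 8 of 10 were present there with 97 UMIs, 89 of them in 1 cell, against 0 UMIs in 4 explants and 1 in another.

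Without the first explant at 0 nM 1 gene passed in amacrine cells, *Cbln2* (log2 fold change -1.02, adjusted p = 0.00971). *Atoh7* then had an adjusted p of 0.0826 at a log2 fold change of 1.91, *Gnai2* one of 0.573 at 0.75, and *Hes5* one of 0.877 at 0.43. Without the second at 5 nM 11 genes passed, and DESeq2 called 1, *Atoh7*.

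**Figure D4:**
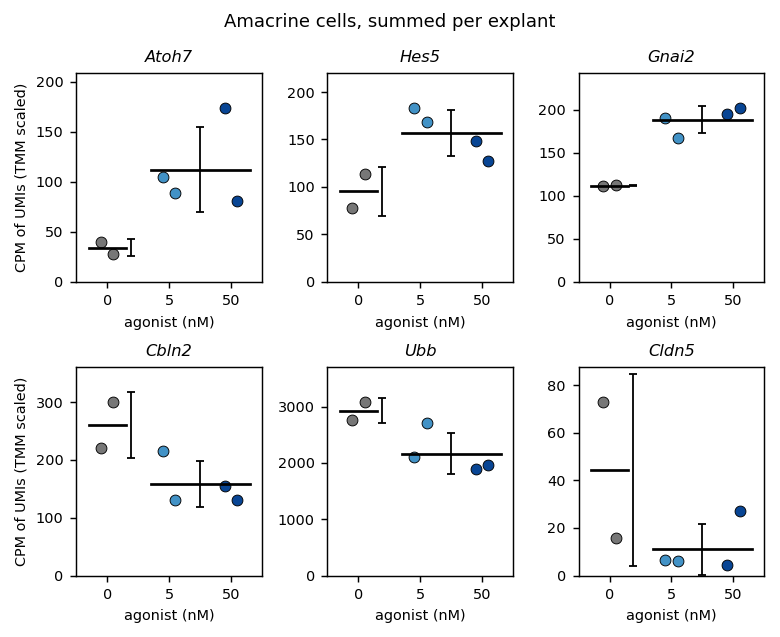
CPM of UMIs (TMM scaled, linear axis from 0) of the 6 genes past the threshold in amacrine cells against agonist dose in nM; points are explants, lines the means of the 2 untreated and 4 treated explants and bars 1 SD. *Atoh7*, *Hes5* and *Gnai2* are higher and *Cbln2* and *Ubb* lower in all 4 treated explants, whereas *Cldn5* rests on a single untreated explant at 73.0.

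In primary progenitors no gene passed the threshold with both low doses together, although several did at a single dose. edgeR called 0 of 7671 genes (0%), with 389 (5.07%) at an unadjusted p under 0.05, and DESeq2 called 0, with 79, over 1119 cells. Leaving out the second explant at 5 nM gave 14 calls, the second at 50 nM 5 and the first at 0 nM 2. The lowest p-values included *Hist1h2ap*, a replication histone, at 138 and 76.2 CPM at 0 nM and 141 to 270 CPM at the low doses (log2 fold change 0.76, SE 0.16, adjusted p = 0.120), and *Acsl3*, a fatty acid ligase, at 816 and 771 CPM at 0 nM and 574 to 661 CPM at the low doses (log2 fold change -0.34, SE 0.08, adjusted p = 0.159). *Hist1h2ap* passed at 50 nM alone (0.89, adjusted p = 0.000218) and *Acsl3* at 5 nM alone (-0.38, adjusted p = 0.0379). *Hist1h1b* passed at 5 nM alone (0.52, adjusted p = 0.00276) and at 50 nM alone (0.49, adjusted p = 0.00808). The groups of *Hist1h2ap* and *Acsl3* did not overlap, which held for 7.51% of all genes upward and 6.96% downward. Of 34 G2 and mitosis genes 6 were higher and 0 lower at an unadjusted p under 0.05, against 2.48% and 2.59% of all genes, and the median was 0.17. The count was 1 at 5 nM alone and 13 at 50 nM alone, and 2 without the second explant at 0 nM. S phase genes had 0 higher and 1 lower of 33, with a median of 0.11, and 6 higher and 0 lower without the first explant at 0 nM.

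*Hes5* lay at 2220 and 2230 CPM in untreated primary progenitors, at 1706 and 2189 CPM at 5 nM and at 1206 and 1626 CPM at 50 nM (log2 fold change -0.39, SE 0.10, adjusted p = 0.262), all treated explants being lower, one of them barely. At 50 nM alone *Hes5* passed, with a log2 fold change of -0.63 (adjusted p = 1.15e-09). At 5 nM alone it was at -0.16 (adjusted p = 0.978). The difference of 50 nM from 5 nM was -0.47 (adjusted p = 3.51e-05). *Lhx2*, a homeobox gene of progenitors, had a log2 fold change of -0.23 (adjusted p = 0.878). Among genes whose groups did not overlap, *Ccnd1* was the largest rise by level (2285 and 2180 CPM against 2343 to 2486 CPM, log2 fold change 0.12, SE 0.06, adjusted p = 0.950), followed by the growth factor *Mdk* (0.40, adjusted p = 0.251). *Ckb* (-0.14), *Hes5* and *Rps3a1* (-0.22) were the largest falls. Of 15 immediate early genes, 3 were higher and 0 lower at an unadjusted p under 0.05, *Egr1* (0.36), *Jund* (0.27) and *Junb* (0.55), with a median of 0.22.

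In RGC-labelled cells 952 genes could be tested, on 11 and 5 cells at 0 nM, and 0 passed (0%), with 37 (3.89%) at an unadjusted p under 0.05; DESeq2 called 0, with 11. Of 10 RGC markers tested 1 was higher (*Nefm*, 1.27, adjusted p = 0.999) and 0 lower at an unadjusted p under 0.05, against 2.52% and 1.37% of all genes, with a median of 0.09 against 0.0289. Groups without overlap were as common as 9.87% upward and 9.35% downward here. *Pou4f1* (-0.01, SE 0.40), *Isl1* (-0.44, SE 0.33) and *Gap43* (0.61, SE 0.35) had SEs wide enough to leave changes of that size undetectable at this depth.

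The response differed between cell types in 17 of 9531 genes (0.178%) by an interaction test with explant as a block. There were 11 and 9 such genes without the first and second explant at 0 nM, 32 and 31 without those at 5 nM and 28 without the first at 50 nM. Leading them were *Hist1h1b* (adjusted p = 3.01e-10), *Hes5* (adjusted p = 7.65e-07), *Atoh7* (adjusted p = 8.50e-05), *Apoe* (adjusted p = 8.50e-05), *Ldha* (adjusted p = 0.00103), *Tmsb4x* (adjusted p = 0.00211), *E130114P18Rik* (adjusted p = 0.00356), *Unc119* (adjusted p = 0.00765), *Pclaf* (adjusted p = 0.00996) and *Gnai2* (adjusted p = 0.0154). *Hist1h1b* had log2 fold changes of 0.51 (SE 0.12) in primary progenitors and -0.57 in neurogenic progenitors (adjusted p = 0.159 and 0.0367 within each type), and of 0.11 (SE 0.22) in photoreceptors and -0.63 (SE 0.19) in amacrine cells. In primary progenitors its groups overlapped, with 558 and 346 CPM at 0 nM and 544 to 800 CPM at the low doses. *Hes5* was at -0.39 in primary progenitors, -0.51 in neurogenic progenitors, -0.19 in photoreceptors and 0.79 in amacrine cells. *Pclaf*, a PCNA clamp-associated factor, was at 0.34 (SE 0.12) in primary and -0.53 (SE 0.16) in neurogenic progenitors. *Unc119*, a lipid-binding trafficking protein of photoreceptors, was at 0.80 (SE 0.20, adjusted p = 0.101) in neurogenic progenitors and -0.15 (SE 0.08, adjusted p = 0.769) in photoreceptors. *Tmsb4x* no longer passed without RGC-labelled cells (adjusted p = 0.988), while the other 9 did, and *Apoe* rested on the first untreated explant as described above.

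**Figure D5:**
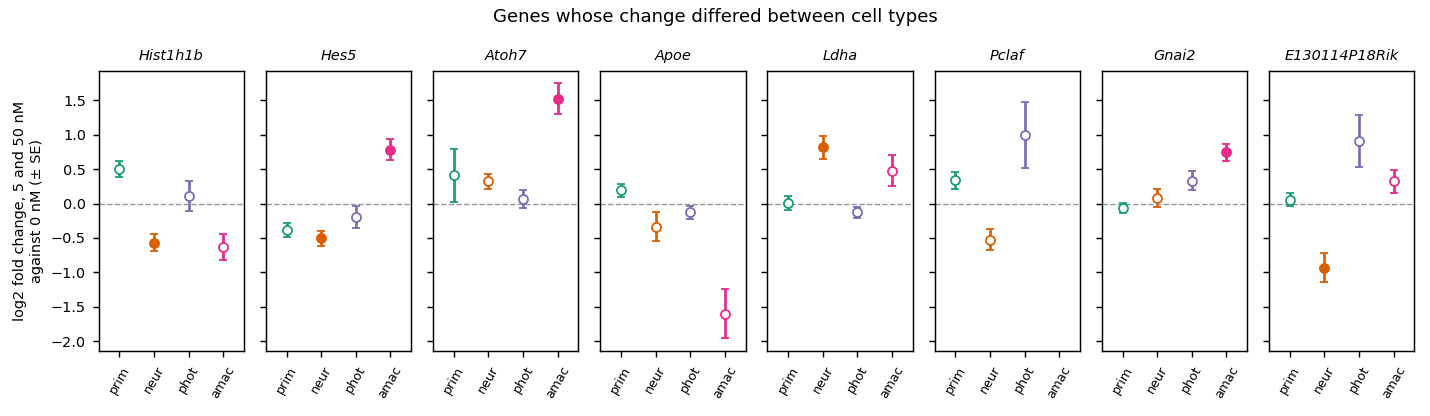
Log2 fold change (5 and 50 nM against 0 nM, bars ± SE) of 8 genes whose change differed between cell types, in primary progenitors, neurogenic progenitors, photoreceptors and amacrine cells; filled points passed an adjusted p of 0.05 within that type, and *Pclaf* was too low to test in amacrine cells. *Hes5* is at -0.51 in neurogenic progenitors and 0.79 in amacrine cells, and *Hist1h1b* at 0.51 in primary and -0.57 in neurogenic progenitors. In primary progenitors the treated and untreated explants of *Hist1h1b* overlap.

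Cell type shares of the 2 groups did not overlap in 4 of the 5 types. Amacrine cells made up 29.4% ± 5.12 (SD, n = 2) of cells at 0 nM and 22.0% ± 3.12 (SD, n = 4) at the low doses, and neurogenic progenitors 11.9% ± 2.25 and 12.3% ± 1.36. RGC-labelled cells made up 1.02% and 1.04% at 0 nM and 2.15% to 7.86% at the low doses, or 11 and 5 cells against 25 and 61 at 5 nM and 13 and 17 at 50 nM. Primary progenitors were higher in all 4 treated explants, by 9.18 percentage points on average, and photoreceptors lower in all 4 (difference -6.04 points). The groups were narrowly apart. The second untreated explant had 25.4% primary progenitors and 34.3% photoreceptors, and the first at 5 nM 26.1% and 33.3%. Amacrine cells stood at 25.8% in the second untreated explant and 24.6% in the first at 50 nM. In each of the 4 types without overlap the two-sided exact permutation test gave p = 0.133, the smallest that 4 against 2 explants allow (adjusted p = 0.167 over 5 types), so no share could pass 0.05. For neurogenic progenitors the exact p was 0.800. Shares sum to 100% within an explant and are not independent of each other.

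The share of neurogenic progenitors with an *Sstr2* UMI did not separate the groups. With each cell thinned to 3000 UMIs (2 to 5 shallower cells of an explant dropped out), it was 22.6% and 23.0% at 0 nM, 22.2% and 19.4% at 5 nM and 31.8% and 14.4% at 50 nM (low doses minus 0 nM -0.824 points, exact permutation p = 0.800). Unthinned, it was 15.8% to 41.3%, against at most 3.28% of the primary progenitors of any explant. The 50 nM explants differed more from each other than from the untreated ones.

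Both doses were also set against 0 nM on their own, with the same untreated explants. At 5 nM alone 9 genes passed in primary progenitors, 6 in neurogenic progenitors, 8 in photoreceptors and 7 in amacrine cells, and at 50 nM alone 13, 2, 20 and 12. The calls at 5 nM included *Xist* in primary progenitors (0.56, adjusted p = 6.14e-05), photoreceptors (0.50, adjusted p = 0.0331) and amacrine cells (0.62, adjusted p = 0.00616). The first explant at 5 nM was the one with almost only *Xist*-positive cells, so these counts mix dose with sex. *Hes5* in neurogenic progenitors was at -0.78 (adjusted p = 0.000212) at 5 nM and -0.27 (adjusted p = 0.676) at 50 nM. There *Ldha* (0.88, adjusted p = 0.0465) and *Aldoa* (1.02, adjusted p = 0.0444) passed at 5 nM alone but not at 50 nM alone (0.75 and 0.79, adjusted p = 0.452 and 0.507). *Hist1h1b* passed at neither (-0.51 and -0.63, adjusted p = 0.304 and 0.368). *Atoh7* in amacrine cells was at 1.35 (adjusted p = 0.00638) and 1.65 (adjusted p = 2.15e-05), and *Gnai2* there at 0.64 (adjusted p = 0.0946) and 0.83 (adjusted p = 0.000737). Compared directly, 50 nM differed from 5 nM in 23 genes in primary progenitors, 2 in neurogenic progenitors, 9 in photoreceptors and 3 in amacrine cells, a contrast added after the data were seen. In primary progenitors *Xist* was among them (-0.46, adjusted p = 0.00285).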

How the data were processed

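Mouse retinal explants were profiled in a single MULTI-seq library. The authors processed reads with Cell Ranger 3.1.0 and Seurat 3 (genome build mm10, per the labels), demultiplexed the samples by barcode and deposited raw UMI counts (18823 genes), SCTransform-corrected values as the natural log of 1 plus the corrected count, and a cell type per cell. Filters on cells are not given in the sources used here.

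Summed counts of each cell type in each explant were tested with edgeR 4.0.16 in R 4.3.3 (quasi-likelihood, TMM, filterByExpr, Benjamini-Hochberg, threshold 0.05), within each type, over the 6 explants. The difference between types was an interaction F-test with explant as a block. Shares were tested by two-sided exact permutation. Alternatives were DESeq2 1.42.0, its size factors, limma 3.58.1 on log2(CPM + 1) of the deposited SCT values, other filters and sample sets, and removal of 43 doublets (1.07%) marked by Scrublet in scanpy 1.11.5. Steps were tested on simulated data.

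The rule named up to 12 called genes per direction and type, the 3 largest rises and falls in CPM without overlap (at least 50 UMIs), the 4 most abundant genes of each list described, the study's markers and the 10 leading interaction genes. Other list members named, and *Rpl28*, *Hist1h2ap*, *Acsl3*, *Apoe* and *Cenpa*, were chosen after their values were seen. Some genes the rule named are not reported here. Comparison and lists were chosen with earlier results of these data known. A count of 0 allows up to 3 counts, and such limits cover counting error only. Computation used Python 3.11.15, numpy 2.4.6, scipy 1.17.1, pandas 2.3.3 and matplotlib 3.10.9. Genes were placed with GENCODE M21.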

Additional observations from a re-analysis of the deposited data

Results flagged for a closer look

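Among the 4 explants at low doses, *Cldn5* in amacrine cells had a sample far from the others (27.1 CPM in the second explant at 50 nM, gap 0.901 of the group's range), and so did *Xist* in amacrine cells (2490 CPM in the first explant at 5 nM, gap 0.887). Chance gives such a gap in about 1 group in 20. Without the first explant at 5 nM the log2 fold change of *Xist* in amacrine cells was 0.14, against 0.37 with it.

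The effect of the low doses differed between cell types by a test of the difference for *Hist1h1b* (adjusted p = 3.01e-10), *Hes5* (adjusted p = 7.65e-07), *Atoh7* (adjusted p = 8.50e-05), *Apoe* (adjusted p = 8.50e-05), *Ldha* (adjusted p = 0.00103), *Tmsb4x* (adjusted p = 0.00211), *E130114P18Rik* (adjusted p = 0.00356), *Unc119* (adjusted p = 0.00765), *Pclaf* (adjusted p = 0.00996) and *Gnai2* (adjusted p = 0.0154). The next 7 genes past the threshold were *Sncg*, *Syt4*, *Id1*, *Actb*, *Platr17*, *Aldoa* and *Fam53b*. Without RGC-labelled cells *Tmsb4x*, *Syt4* and *Actb* no longer passed (adjusted p = 0.988, 0.715 and 0.982).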

How the results depend on the processing

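No paired analysis was possible because the deposited cells carry only a sample barcode and no replicate number shared between doses. The 15 genes past the threshold kept their direction in every setting tried. This is no support, because every setting used the same explants that picked the genes. Except in *Cldn5* the groups did not overlap, so leaving out an explant or a dose could hardly reverse a direction. The number of calls did not hold. DESeq2 called 0 genes in neurogenic progenitors and in photoreceptors and 1 in amacrine cells; limma on SCT values called 0, 0 and 1, and 1 in RGC-labelled cells. Without the filter on low counts there were 8 calls in primary progenitors, 6 in photoreceptors and 14 in amacrine cells, and without doublets 1 in photoreceptors. With all 8 explants in the fit neurogenic progenitors had 0 and photoreceptors 1. With 3 dose groups, primary progenitors, neurogenic progenitors and photoreceptors had 7, 1 and 9. At 5 nM alone primary progenitors and photoreceptors had 9 and 8, and at 50 nM alone primary progenitors, neurogenic progenitors, photoreceptors and amacrine cells had 13, 2, 20 and 12. For 50 nM against 5 nM they had 23, 2, 9 and 3.

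Leaving out each explant in turn gave 0 to 14 calls in primary progenitors, 0 to 13 in neurogenic progenitors, 1 to 6 in photoreceptors and 1 to 11 in amacrine cells, and 9 to 32 genes that differed between cell types. An explant left alone at 0 nM was assumed to vary like the treated ones. The neurogenic share reversed at 50 nM alone (-0.351 points) and ranged from -1.17 to 2.02 points with each explant left out. The *Sstr2* share reversed without doublets (0.732 points) and ranged from -4.11 to 1.69 points with each explant left out. RGC-labelled cells rest on 11 and 5 cells at 0 nM. The cause of these differences between settings was not tested.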

Other observations

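The 500 nM explants, outside this comparison, gave the following values in a fit of all 8 explants, with no test against 0 nM made here. In neurogenic progenitors *Hist1h1b* stood at 528 and 469 CPM, *Hes5* at 1218 and 1574 CPM, *Ldha* at 331 and 256 CPM and *Aldoa* at 145 and 117 CPM. *E130114P18Rik* stood there at 91.7 and 113 CPM. *Psip1* was at 1943 and 2748 CPM, the second above both untreated explants. *Malat1* was at 28262 and 26087 CPM, the second between the untreated explants. In photoreceptors *Opn1sw* stood at 574 and 250 CPM, so that 1 explant was within the range of the untreated ones and the other below all at the low doses. *Ppp1r14b* stood there at 325 and 454 CPM, the first between the untreated explants. In amacrine cells *Atoh7*, at 85.2 and 53.7 CPM, and *Gnai2*, at 129 and 170 CPM, lay above both untreated explants. *Hes5*, at 71.9 and 117 CPM, lay below all explants at the low doses. *Cbln2*, at 213 and 204 CPM, lay below both untreated explants and within the range of the low doses. *Ubb*, at 2705 and 1919 CPM, and *Cldn5*, at 6.66 and 9.76 CPM, were also below both untreated explants.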
